A study of Mus musculus with 19 samples.

Results

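A set of 10 genes of the NF-κB pathway and of medullary maturation was taken by name from the table of raw read counts, which held 21964 protein-coding genes. They are Relb, Nfkb2, Nfkb1, Rela, Ltbr, Cd40, Tnfrsf11a, Traf3, Map3k14 and Aire. All 10 had at least 1 read in a cell that was kept, and 8 of the 10 had enough reads to be tested between stages. The cells were single EPCAM+PLET1+ cells sorted from microdissected thymic primordia of wild-type mouse embryos at E10.5, when the organ is a pouch of pharyngeal endoderm, and at E12.5, when it is an epithelial primordium. The data comprised 356 cells at E10.5, on 4 plates lettered a to d, and 355 cells at E12.5, on 4 plates lettered a, c, d and e, of 733 wells in all. A plate is the replicate, and nothing in the labels ties a plate to separate litters, so p values measure the spread between plates, which may be technical.

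NF-κB dimers are held inactive in the cytoplasm until a receptor releases them. In the canonical branch, a kinase complex removes the inhibitor from dimers such as RELA with p50, the product of Nfkb1. In the non-canonical branch, receptors including LTBR, CD40 and RANK (encoded by Tnfrsf11a) inactivate TRAF3, which otherwise destroys the kinase NIK (encoded by Map3k14); NIK then drives the processing of the Nfkb2 product to p52, the partner of RELB. In the postnatal thymus this branch is needed for the growth and maturation of medullary epithelium, and its most mature cells express AIRE, the regulator that makes them transcribe tissue-restricted self antigens.

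The genes lie at Relb, chr7:19606217-19629438; Nfkb2, chr19:46304320-46312385; Nfkb1, chr3:135584655-135691547; Rela, chr19:5637483-5648130; Ltbr, chr6:125306571-125313885; Cd40, chr2:165055627-165072948; Tnfrsf11a, chr1:105780718-105847981; Traf3, chr12:111166370-111267153; Map3k14, chr11:103219762-103267472; and Aire, chr10:78030022-78043610 (GRCm38, GENCODE vM21). All are annotated as protein coding. Of the exonic bases of Nfkb2, 18.1% also belong to exons of another gene, among them Psd, and the corresponding shares were 2.06% for Map3k14 and 1.75% for Aire. Reads that fall there may be uncounted or assigned to either gene, so Nfkb2 levels in particular are less certain.

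Promoter sequence is shown for Nfkb2 and Traf3, the 2 genes with a match to the κB consensus described here, and for Ltbr, because it had the smallest adjusted p among the 10. RefSeq promoters (GRCm38.p6, 250 bases before to 50 after a start) were present for 7 of the 10 genes, with 9 starts, of which 3 belonged to Nfkb2. The 10-base κB consensus, read on both strands, matched 4 of the 9, at all 3 Nfkb2 starts and at the Traf3 start. It was found in 4.51% of all 32851 promoters. By gene, it matched 2 of the 7, and 5.14% of all 27025 genes with a promoter. Of the 5 matching stretches found, 4 are shown, leaving out 1 that lies 236 bases before an Nfkb2 start. Each of the following runs holds 30 bases on the plus strand, 5′ to 3′, with the match in capitals.
Nfkb2, 39 bases before a start, chr19:46304688-46304717: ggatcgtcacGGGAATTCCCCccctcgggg
Nfkb2, 11 bases before the same start, chr19:46304716-46304745: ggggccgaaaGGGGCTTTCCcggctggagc
Nfkb2, 225 bases before another start, chr19:46305695-46305724: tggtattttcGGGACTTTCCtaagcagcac
Traf3, 10 bases before its start, chr12:111166350-111166379: ggcggcccgcGGGGATTTCCagcgcgcgag
The first of these matches in overlapping positions on both strands. The third lies in the shared part of overlapping windows of 2 starts. The 250 bases before the Ltbr start, on the minus strand, held no match and are all in lower case.
Ltbr, chr6:125313886-125314135: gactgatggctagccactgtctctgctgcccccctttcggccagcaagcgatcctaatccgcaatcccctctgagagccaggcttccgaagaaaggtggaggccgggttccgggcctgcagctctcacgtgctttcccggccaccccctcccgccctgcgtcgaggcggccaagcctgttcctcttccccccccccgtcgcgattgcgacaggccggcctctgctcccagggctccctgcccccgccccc
A match describes letters only, and binding was not measured.

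Levels are given as CPM, the reads of a gene per 1000000 reads of protein-coding genes, summed over the cells of a plate. Protein-coding reads per plate ranged from 11674156 to 14363255 at E10.5 and from 14599988 to 17545016 at E12.5. On these plates 3 reads correspond to between 0.171 and 0.257 CPM. The median cell had 133387.5 reads at E10.5 and 168473 at E12.5, and 3895.5 and 3040 molecules of the first sequencing run. Shares of cells with a read were not matched for reads per cell. Median molecules per cell in the first sequencing run ranged from 1305 on plate a of E10.5, the lowest, to 5175 on plate c of E10.5. The labelled tissue was checked with markers. All 9 thymic epithelial markers were read at both stages, with summed levels of 1010 to 1220 CPM at E10.5 and 10900 to 12300 CPM at E12.5, and Foxn1, the master regulator of thymic epithelium, averaged 0.671 ± 0.716 CPM at E10.5 and 212 ± 47.5 CPM at E12.5 (SD over 4 plates). Of 8 blood markers, Cd3e, Lyz2 and Cd79a had no read, and the sum of all 8 was between 2.09 and 7.32 CPM at E10.5 and between 0 and 72.6 CPM at E12.5, the highest on plate a.

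The receptor Ltbr and the signalling genes Nfkb1 and Map3k14 rose between E10.5 and E12.5. Relb, Nfkb2, Rela and Traf3 were read on all 8 plates, except for Relb on plate a of E10.5, and did not pass the test. Cd40 was read in few cells, and Tnfrsf11a and Aire were close to absent at both stages. In edgeR's quasi-likelihood test on plate sums, with Benjamini-Hochberg adjustment over all genes tested, 3 of 8 tested genes passed an adjusted p of 0.05, all of them higher at E12.5. Of all 11499 genes tested, 3.80% passed upward, 2.44% downward and 6.24% in either direction. A plate sum does not tell fewer expressing cells from less RNA per cell, and the plates also differ in other cells: the summed level of the parathyroid markers Gcm2, Pth and Chga was 7.62 to 36.0 CPM at E10.5 and 2730 to 8560 CPM at E12.5. Other marker sums also did not overlap between stages: mesenchyme at 64.6 to 124 and 10.2 to 35.0 CPM, and endothelium at 3.76 to 25.0 and 0.057 to 0.137 CPM, with Cdh5 at 0 throughout. Neural genes were at 168 to 479 and 670 to 971 CPM, but Stmn2 made up nearly all of the E12.5 sum. Stmn2 was at 26.2 to 79.5 CPM at E10.5 and 669 to 971 CPM at E12.5. Without Stmn2, the neural genes marked 75 cells at E10.5 (21.1%) and 2 cells at E12.5 (0.563%), the opposite direction. The comparison was repeated without parathyroid- and neural-marked cells, as given further on, and the part of the other cells was not tested.

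**Figure D1:**
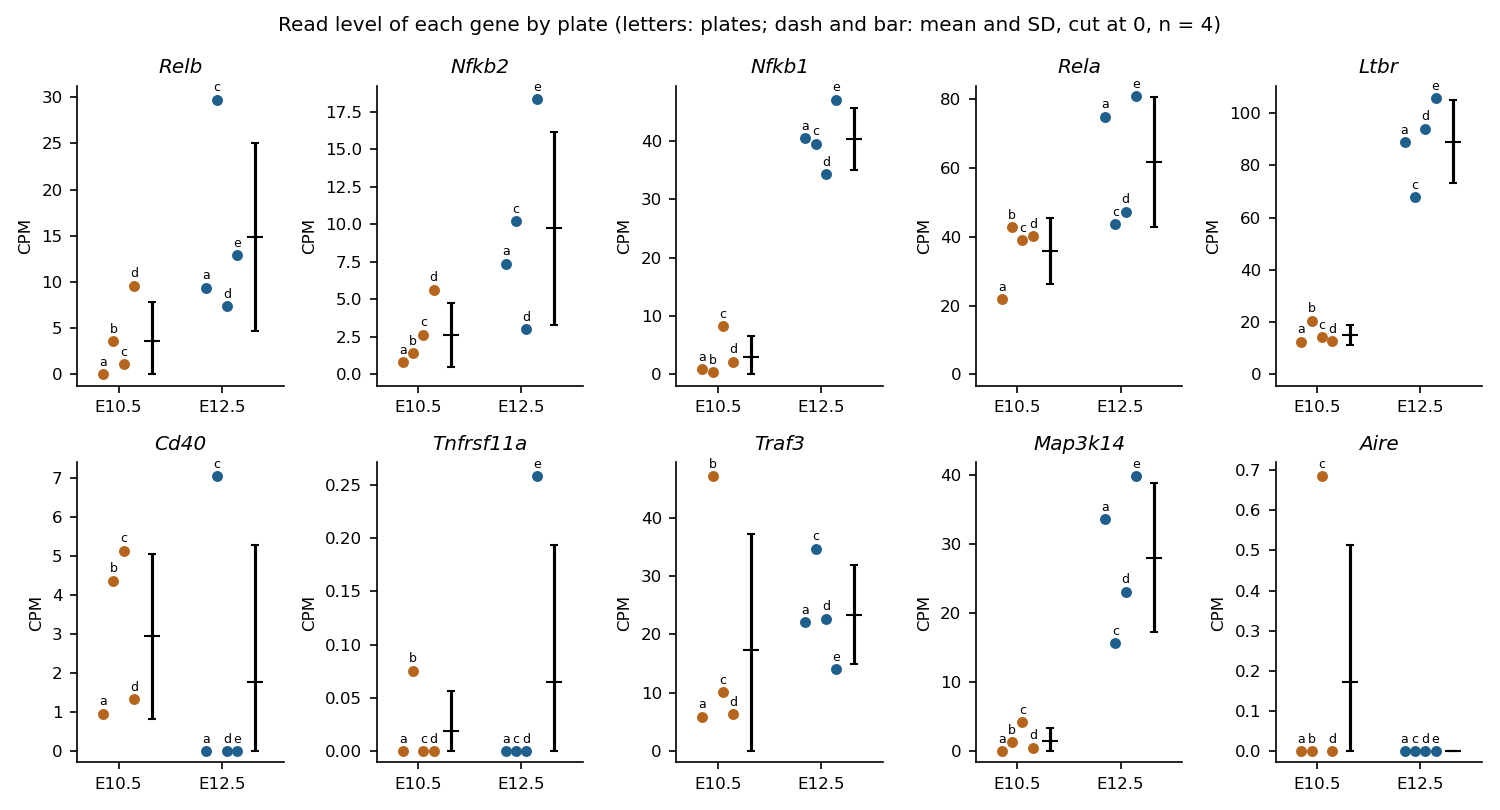
CPM of each of the 10 genes on 4 plates per stage, with the plate letter above each point and the mean and SD beside them (bars cut at 0; the vertical axis differs between genes). Ltbr, Nfkb1, Map3k14 and Rela do not overlap between stages and are higher at E12.5, as are 8.59% of all genes tested. Rela did not pass the test. Aire is at 0 on all E12.5 plates.

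Of the receptors, Ltbr, which binds lymphotoxin and LIGHT, was at 12.6, 20.5, 14.1 and 12.7 CPM on plates a, b, c and d of E10.5. On plates a, c, d and e of E12.5 it was at 88.8, 67.7, 93.9 and 106 CPM. Every E12.5 plate lay above every E10.5 plate, as it did for 8.59% of all genes tested. The log2 fold change was 2.51 (standard error 0.35, adjusted p = 0.00144 from edgeR, Benjamini-Hochberg), and it passed with any 1 plate left out (2.34 to 2.71). Ltbr was read in 68 of 356 cells at E10.5 (19.1%, 95% exact binomial interval 15.1% to 23.6%) and in 146 of 355 at E12.5 (41.1%, 36.0% to 46.4%). The median number of Ltbr reads in a cell with a read was 30, 2, 5 and 3 on plates a, b, c and d of E10.5 and 26, 22, 12 and 14 on plates a, c, d and e of E12.5. Plate a of E10.5, with 7 such cells, lay above every E12.5 plate, and the other E10.5 plates lay below them.

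Cd40, the receptor for CD40 ligand, was at 0.955, 4.37, 5.14 and 1.32 CPM on the E10.5 plates. At E12.5 it was at 7.05 CPM on plate c and listed at 0 on plates a, d and e. These E12.5 reads came from 2 cells, 1 of which held 80.6% of them. At E10.5, Cd40 was read in 11 cells spread over all 4 plates (3.09%, interval 1.55% to 5.46%), against 0.563% of E12.5 cells (interval 0.0683% to 2.02%). The stages overlapped, with a log2 fold change of -0.92 (adjusted p = 0.87 from edgeR, Benjamini-Hochberg). Without plate c of E12.5 no fold change is given, since the other E12.5 plates had no read, and the adjusted p was 0.0593 (edgeR, Benjamini-Hochberg).

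Tnfrsf11a, which encodes the receptor for RANK ligand, had 1 read in 1 cell of plate b at E10.5 and 4 reads in 1 cell of plate e at E12.5. It was below the filter on low counts and was not tested. At E10.5 no cell held a molecule of it in the first run, which allows a share of up to 0.843% by the limit of 3 counts, and 1 cell held one in the repeat run. At E12.5 the single cell was 0.282% of 355 (interval 0.0071% to 1.56%). These 3 receptors, which are not the only ones of the non-canonical branch, were thus measured in the same cells. Ltbr alone of the 3 was read on all 8 plates.

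Traf3, the adaptor that marks NIK for destruction, was at 5.89, 47.1, 10 and 6.34 CPM on the E10.5 plates and at 22.1, 34.7, 22.7 and 14.0 CPM on the E12.5 plates. Plate b of E10.5 was the highest of all 8, with 202 of its 625 reads in 1 cell. The stages overlapped, and the log2 fold change was 0.31 (standard error 0.69, adjusted p = 0.88 from edgeR, Benjamini-Hochberg). It was 1.56 without plate b of E10.5, again without passing (adjusted p = 0.185 from edgeR, Benjamini-Hochberg). Cells with a Traf3 read made up 8.71% at E10.5 and 10.7% at E12.5, with overlapping intervals.

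Map3k14, which encodes NIK, was at 0, 1.28, 4.20 and 0.487 CPM on the E10.5 plates and at 33.5, 15.5, 23.0 and 39.8 CPM on the E12.5 plates. No E12.5 plate overlapped with E10.5. On plate a of E12.5, 1 cell held 183 of the 550 Map3k14 reads. The log2 fold change was 4.18 (standard error 1.10, adjusted p = 0.0466 from edgeR, Benjamini-Hochberg), close to the threshold. Leaving out 1 plate at a time gave log2 fold changes from 3.76 to 5.43, and 2 of the 8 fits passed (adjusted p from 0.0185 to 0.124 from edgeR); the call was lost without plates b or d of E10.5 and without any single E12.5 plate. It was read in 9 E10.5 cells (2.53%) and 69 E12.5 cells (19.4%, interval 15.4% to 23.9%).

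Among the transcription factors, Nfkb1 was at 0.875, 0.377, 8.22 and 2.16 CPM at E10.5 and at 40.5, 39.6, 34.3 and 47.1 CPM at E12.5. The E12.5 plates lay within a narrow range, well above the E10.5 plates. Single cells weighed on some of these sums. At E12.5, 1 cell held 44.7% of the Nfkb1 reads on plate e and 1 cell 31.9% of those on plate d. On plate c of E10.5, 1 cell held 71.9%. The log2 fold change was 3.73 (standard error 0.85, adjusted p = 0.0233 from edgeR, Benjamini-Hochberg), and it passed in 6 of 8 leave-one-plate-out fits, the exceptions being those without plate d of E10.5 and without plate e of E12.5 (adjusted p = 0.0662 and 0.0602 from edgeR). It was read in 3.65% of E10.5 cells and 29.3% of E12.5 cells. Rela, which encodes the main transactivating subunit of the canonical branch, was at 21.8, 42.8, 39.0 and 40.2 CPM at E10.5 and at 75.0, 43.6, 47.4 and 80.9 CPM at E12.5. Although all E12.5 plates lay above all E10.5 plates, the log2 fold change of 0.69 did not pass (standard error 0.39, adjusted p = 0.411 from edgeR, Benjamini-Hochberg). Its share of cells with a read, 25.6% at E10.5 and 27.9% at E12.5, had overlapping intervals.

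Relb and Nfkb2, the pair whose products form the non-canonical dimer, were the least read of the factors at E12.5. Relb was at 0, 3.62, 1.11 and 9.61 CPM at E10.5 and at 9.38, 29.7, 7.41 and 12.9 CPM at E12.5. Nfkb2 was at 0.795, 1.43, 2.66 and 5.64 CPM and at 7.37, 10.2, 3.02 and 18.3 CPM. For each, plate d of E10.5 reached into the E12.5 range. The log2 fold changes were 1.80 (standard error 1.20) and 1.76 (standard error 0.95), with adjusted p values of 0.504 and 0.384 from edgeR (Benjamini-Hochberg). Single cells carried much of the reads, since 1 cell held 85.5% of the Relb reads on plate d of E10.5 and another 64.1% of those on plate c of E12.5. Relb was read in 13 cells at E10.5 and 34 at E12.5, and Nfkb2 in 16 and 38.

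Aire had no read in any of the 355 E12.5 cells, which allows a share of cells with a read of up to 0.845%. At E10.5 it had 8 reads in 1 cell of plate c, where a molecule was also found in each of 2 runs. That cell had 132647 reads, 58 of them on Epcam and none on Foxn1 or Krt5. Its Aire reads are the only ones among 711 cells.

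Counted as molecules after the DBEC adjustment, which removes molecules likely to be errors of sequencing or amplification, the order of the stages was the same for the 3 genes that passed. In the first run, an Ltbr molecule was found in 7.02% of E10.5 cells and 23.9% of E12.5 cells, an Nfkb1 molecule in 1.97% and 10.7%, and a Map3k14 molecule in 1.12% and 10.7%. A fit on molecules summed over both runs gave log2 fold changes of 2.07, 3.04 and 3.08 with adjusted p values of 0.000769, 0.00117 and 0.00111 (edgeR, Benjamini-Hochberg). Both runs read the same wells, so a molecule found in each run was counted 2 times. The p values of this fit may therefore be too small. Relb, at 1.97% and 6.76% of cells, came closer to the threshold by molecules than by reads (log2 fold change 1.94, adjusted p = 0.0672 from edgeR), and Nfkb2 and Cd40 were below the filter on low counts in that fit. Nfkb2 had 3, 2, 3 and 16 molecules in the first run on plates a, c, d and e of E12.5, so that most came from plate e.

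DBEC removed some genes far more than others. Of the 104 E12.5 cells with an Nfkb1 read, 38 had an Nfkb1 molecule in the first run and 44 in either run, although all 104 had one by RSEC, an earlier step that merges molecules differing by a sequencing error. Of the 99 cells with a Rela read, 72 kept a molecule, and of the 146 with an Ltbr read, 85 did. By reads Nfkb1 and Rela were thus found in similar numbers of E12.5 cells, while by DBEC molecules Nfkb1 was found in fewer. Among the 9 sequencing runs of each stage that belong to plates of the count table, which leaves out the single run of plate b of E12.5, the deposited molecule files list Aire as not detected in 7 at E10.5 and all 9 at E12.5, and Tnfrsf11a in 8 and 6. They list Ltbr and Rela as passing in all of these runs.

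**Figure D2:**
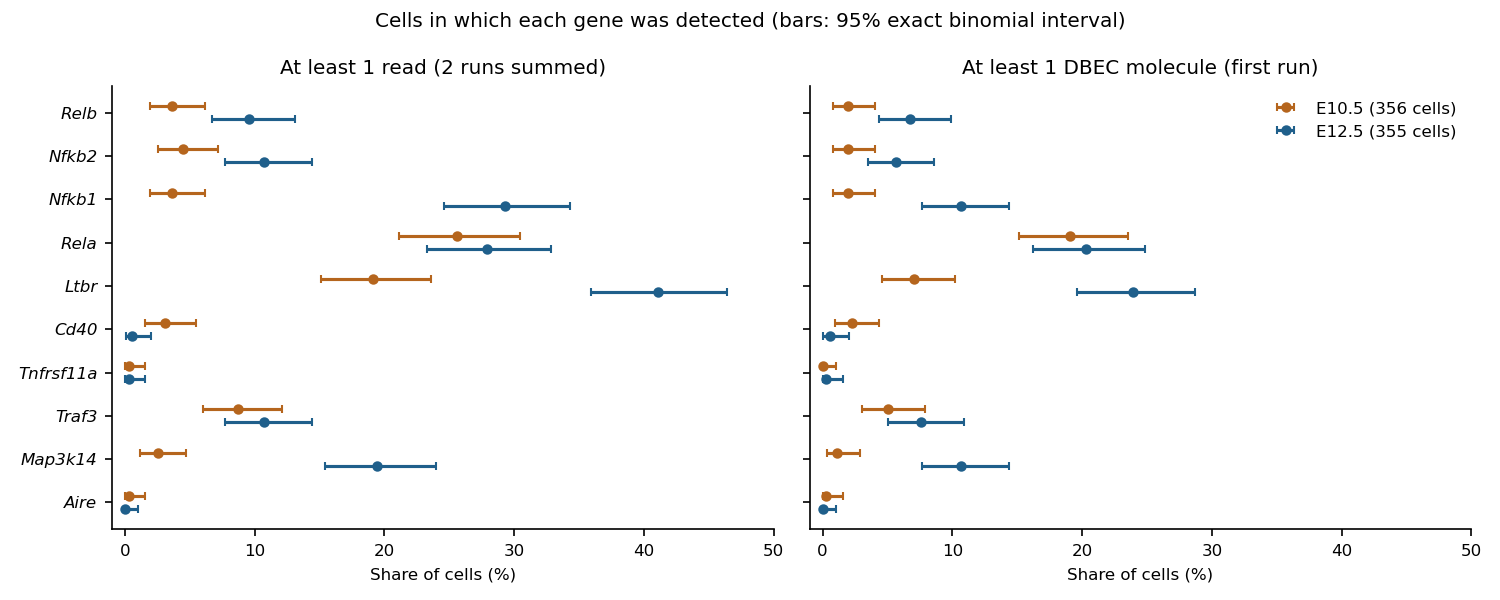
Share of cells in percent (horizontal axis) with at least 1 read (left) or at least 1 DBEC molecule of the first run (right) for each gene, over 356 E10.5 cells and 355 E12.5 cells, with 95% exact binomial intervals that cover counting error only. The intervals of Ltbr, Nfkb1, Map3k14 and Relb do not overlap between stages in either panel, those of Nfkb2 do not overlap by reads, and those of Rela overlap in both. Median reads per cell were higher at E12.5 (168473 against 133387.5) and were not matched.

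Depth differed between plates, so each cell was also thinned to 1000 molecules of the first run, leaving out 25 E10.5 cells, all from plate a, and 5 E12.5 cells. The expected share with a molecule was then 2.21% at E10.5 and 8.13% at E12.5 for Ltbr, 0.651% and 3.73% for Nfkb1, and 0.264% and 2.96% for Map3k14. For Relb it was 0.513% and 2.25%, for Nfkb2 0.643% and 1.71%, and for Rela 5.27% and 7.37%. The share was higher at E12.5 for each of these genes at 1000 molecules per cell, while reads per cell were not matched. A further E12.5 plate, b, which was run once and is not part of the count table, had 87 cells. It held Ltbr at 46.7, Nfkb1 at 32.8, Map3k14 at 35.4, Nfkb2 at 12.3, Rela at 107, Traf3 at 13.8 and Relb at 3.52 CPM, and no read of Cd40, Tnfrsf11a or Aire. Ltbr, Nfkb1, Traf3 and Relb were lower there than on the other E12.5 plates, with Relb and Traf3 inside the E10.5 range, and Rela was higher.

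At E10.5, 50.8% of cells had no read of any of the 10, 32% had reads of 1 gene, 12.6% of 2 and 3.93% of 3. At E12.5 the corresponding shares were 22.0%, 30.7%, 29.3% and 13.0%, and the highest number of genes in a cell was 6, in 1 cell, against 4 at E10.5. Reads per cell were also higher at E12.5 (median 168473 against 133387.5), and these shares were not matched for it. Of the 34 E12.5 cells with a Relb read, 8 also had Nfkb2, 15 Map3k14 and 16 Ltbr. Conversely, the 8 cells with both Relb and Nfkb2 were 21.1% of those with Nfkb2. At E10.5 no cell had reads of both Relb and Nfkb2. Cells with reads of more genes overall enter such counts more often, so they describe these libraries only.

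The gene whose plate levels most resembled those of Ltbr, the gene of the 10 with the highest mean CPM at E12.5, was Eya2, with a Pearson r of 0.994 over 8 plates on log2(CPM + 1), followed by Dusp14 at 0.992 and Dyrk2 at 0.989. Each was higher at E12.5, and with plates in 2 separate groups the r mostly repeats the difference between stages. Eya2 was at 157 and 561 CPM.

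At E12.5, cells with Krt5 at 50 CPM or more, 132 in number, were compared with the 223 below 50 CPM. Krt5 is a keratin of medullary epithelium and its progenitors. The question was whether regulators of medullary maturation were already more abundant in Krt5-high cells. With the plate as a block, edgeR called none of the 8 tested genes (adjusted p from 0.910 to 1.0, Benjamini-Hochberg), and none had an unadjusted p under 0.05. Among all 11638 genes tested, 7 passed (0.0601%, with 0.0258% upward and 0.0344% downward), and 758 had an unadjusted p under 0.05. Krt5 itself, which defines the classes, is among those that passed upward. DESeq2 called 397 genes and none of the 8. Krt17, another marker of medullary progenitors, was at 290 ± 201 CPM in Krt5-high and 21.7 ± 15.5 CPM in Krt5-low cells (SD over 4 plates). It did not pass the main fit either (log2 fold change 3.83, adjusted p = 0.0531 from edgeR). The lack of calls therefore says little about smaller differences. The class was set by Krt5 alone and may hold cells other than medullary progenitors.

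Ltbr was at 46.2, 158, 88.1 and 145 CPM in Krt5-high cells of plates a, c, d and e and at 115, 25.6, 99.0 and 72.8 CPM in Krt5-low cells of the same plates. It was thus higher in Krt5-high cells on 2 of 4 plates, and the log2 fold change of 0.60 was smaller than its standard error of 0.64. Relb was at 9.09, 91.2, 13.9 and 11.4 CPM in Krt5-high cells and at 9.56, 1.0, 1.71 and 14.2 CPM in Krt5-low cells. The mean of Krt5-high cells, 31.4 CPM, rests on plate c, where 3 cells had Relb reads. The log2 fold change was 2.04 (standard error 1.43) and 0.86 without plate c, and Relb was read in 14.4% of Krt5-high cells (interval 8.89% to 21.6%) and 6.73% of Krt5-low cells (interval 3.81% to 10.9%). The share was higher in Krt5-high cells on all 4 plates, also when thinned to 1000 molecules, where the pooled shares were 3.49% and 1.51%. By DBEC molecules of the first run it was higher on 3 of 4 plates, the exception being plate a, with 6.25% of Krt5-high and 6.78% of Krt5-low cells.

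Nfkb2, Nfkb1, Rela and Traf3 were each higher in Krt5-high cells on 2 of 4 plates, and Map3k14 on 3 of 4. Their log2 fold changes were 1.25, 0.40, 0.20, 0.02 and 0.45, each within 1 standard error of 0 (1.82, 0.65, 0.47, 0.89 and 0.56). Cd40 was read in 1 cell of each class, Tnfrsf11a in 1 Krt5-low cell, and Aire in none of the 132 Krt5-high cells, which allows up to 2.27%. Krt5-high cells were sequenced more deeply, with a median of 191601 reads against 156502 and 3567 molecules of the first run against 2594. Cells marked by the parathyroid genes Gcm2, Pth and Chga made up 15.2% of Krt5-high and 34.1% of Krt5-low cells, and their part in these values was tested only by leaving them out, after which none of the 7 genes that remained testable passed.

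**Figure D3:**
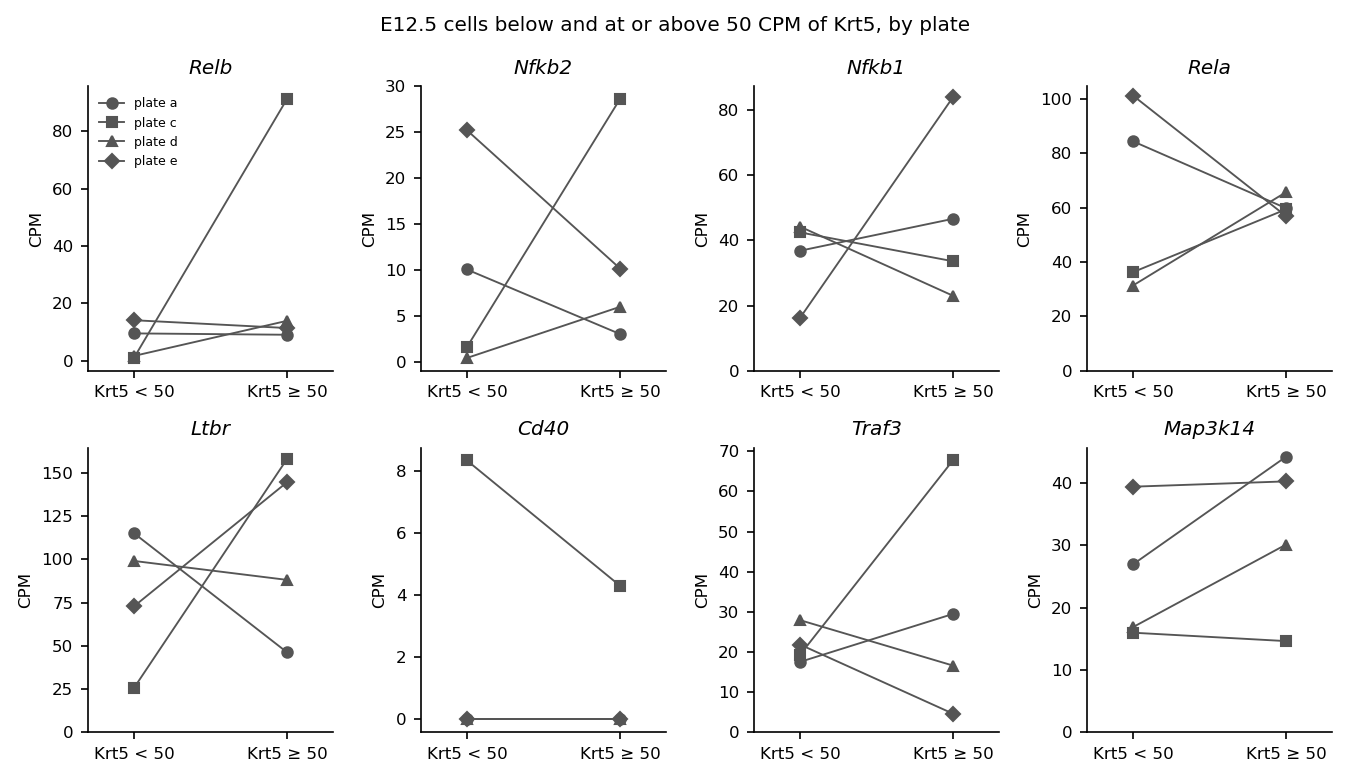
CPM of 8 genes in E12.5 cells below and at or above 50 CPM of Krt5, with 1 line for each of plates a, c, d and e (the vertical axis differs between genes). Lines run both up and down for 7 of the 8 genes, and the steep Relb line is plate c.

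In the 48 E12.5 cells that had Krt5 together with Krt17 or Cldn4 at 50 CPM or more, Relb was read in 11 cells (22.9%) and Ltbr in 26 (54.2%), against 7.49% and 39.1% of the other 307 cells. Rela was read in 45.8% against 25.1%, Nfkb2 in 16.7% against 9.77% and Map3k14 in 20.8% against 19.2%. Nfkb1 and Traf3 were read in smaller shares of them, 16.7% against 31.3% and 8.33% against 11.1%. Cd40 was read in 1 cell of each group, and Tnfrsf11a and Aire in none of the 48. Relb was uneven, at 0, 311, 36.9 and 9.13 CPM in these cells of plates a, c, d and e. None of the genes passed the test there (edgeR), and these cells had more reads (median 214462.5 against 164626). In parathyroid-marked cells at E12.5, Nfkb1 averaged 17 ± 12.2 CPM and Ltbr 68.9 ± 75.9 CPM (SD over 4 plates), against 47.3 ± 6.81 and 97.0 ± 25.6 CPM in the cells not so marked. At E10.5, 85 cells were marked by neural genes. Nfkb1 had no read in them, which allows up to 3.53% by the limit of 3 counts and 4.25% by the exact interval. It was read in 13 of the other 271 cells (4.80%, interval 2.58% to 8.06%), so the exact intervals overlapped. Rela was read in 24.7% of neural-marked and 25.8% of the other cells.

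The stage comparison was repeated without such cells. The neural rule used Neurod1, Tubb3, Elavl3 and Stmn2, and Stmn2, at 816 ± 142 CPM at E12.5, made it mark 241 of 355 E12.5 cells, and with the parathyroid rule 61 E12.5 cells were left. With both rules applied, none of the 7 genes tested passed, and 131 of all 9556 genes tested did. The log2 fold changes were then 1.96 for Ltbr, 3.58 for Nfkb1 and 5.30 for Map3k14 (adjusted p = 0.432, 0.178 and 0.110 from edgeR, Benjamini-Hochberg). With Stmn2 left out of the rule, a choice made after these values were seen, 3 genes passed again, Ltbr, Nfkb1 and Map3k14, beside 532 of all 10858 genes tested.

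Genes that act with the 10 were described from 5 lists of 104 genes in all. Of 36 other signalling genes, 31 were tested and 1 rose, Nfkbia, which encodes the inhibitor of RELA and p50 and is itself a target of NF-κB. It was at 51.7 ± 15.8 CPM at E10.5 and 264 ± 67.7 CPM at E12.5 (mean ± SD, n = 4 plates; log2 fold change 2.24, standard error 0.36, adjusted p = 0.00332 from edgeR). This was 3.23% of the list's tested genes, near the 3.80% of all genes that passed upward. The median log2 fold change of that list was 0.72, beside 0.00 over all genes. Of 18 other receptors, 6 were tested and 1 rose, the TNF receptor gene Tnfrsf1a, from 8.05 ± 1.48 to 75.0 ± 15 CPM (adjusted p = 0.000286 from edgeR); 1 of 6 is 16.7%, beside 3.80% of all genes. Neither Nfkbia nor Tnfrsf1a passed without parathyroid- and neural-marked cells when Stmn2 was used (adjusted p = 0.141 and 0.0952 from edgeR), and both passed when it was not. Of the 12 ligands none had enough reads to be tested, and 7, among them Tnfsf11 (RANK ligand), Lta, Tnf, Tnfsf14 and Cd40lg, had no read at either stage.

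Of 18 known NF-κB targets, 11 were tested, and 6 rose and none fell, with a median log2 fold change of 2.40. Over all genes 3.80% rose and 2.44% fell, and the median was 0.00. Icam1, Vcam1 and Cxcl1 had few or no E10.5 reads, so the filter on low counts kept them through E12.5 and they could only rise. The counts and the median therefore describe the list and do not test it. Icam1, an adhesion molecule, was at 92.1, 44.7, 26.6 and 36.3 CPM on the E12.5 plates and had 1 read on each of 3 E10.5 plates. Cxcl1, a neutrophil-attracting chemokine, was at 4.65 to 21.8 CPM at E12.5 and listed at 0 on all E10.5 plates. With the wells outside the limits kept in, it no longer passed (adjusted p = 0.469 from edgeR). The others were Vcam1, an adhesion molecule, Psmb10, an immunoproteasome subunit, Ier3, an early response gene, and Nfkbia; these 4, like Tnfrsf1a, were named after their values were seen. Vcam1 passed in 3 of 8 leave-one-plate-out fits, those without plates a or d of E10.5 or plate c of E12.5. Each can be regulated by other pathways. The count was 5 or 6 with any 1 plate left out, 5 without parathyroid- and neural-marked cells when Stmn2 was not used, and 1 of 8 tested when it was. The blood marker sum was highest on plate a of E12.5, as was Icam1, and its part in these values was not tested.

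A list of 24 genes for medullary maturation also held the sort marker Epcam and the progenitor markers Cldn3, Cldn4 and Sox9. Of the 24, 12 were tested, 6 rose and 1 fell, beside 3.80% and 2.44% of all genes, with a median log2 fold change of 3.91. The other 12 had too few reads to be tested. Cd74, Krt14 and H2-Aa had at most 1 E10.5 read, so the filter kept them through E12.5 and they could only rise. The counts and the median therefore describe the list and do not test it. By fitted fold change, Cd74 and H2-Aa, of the MHC class II pathway, and Krt14, a basal keratin, came first, but Cd74 and Krt14 had no E10.5 read, so that their fitted folds are not bounded by data and are not given. Cd74 was at 11.9 to 26.8 CPM at E12.5 and listed at 0 at E10.5, and H2-Aa was at 34.9 to 67.4 CPM with 1 E10.5 read. Krt14 was at 14.6 CPM on plate c and 1.58 to 1.94 CPM on the other E12.5 plates, and passed in 1 of 8 leave-one-plate-out fits, that without plate a of E10.5. The others that rose, named after their values were seen, were H2-Ab1, another MHC class II gene, from 5.43 ± 6.12 to 271 ± 57.4 CPM, the chemokine gene Ccl21a, from 0.819 ± 0.656 to 53.6 ± 29 CPM, and the transcription factor gene Irf8, from 1.90 ± 1.80 to 27.8 ± 8.15 CPM (SD over 4 plates; adjusted p = 0.0129, 0.00332 and 0.0304 from edgeR). Irf8 passed in 3 of 8 leave-one-plate-out fits, those without plates a or c of E10.5 or plate a of E12.5. Ccl21a no longer passed without parathyroid- and neural-marked cells, Stmn2 not used (log2 fold change 0.98 against 5.80). Without parathyroid- and neural-marked cells, 3 of 11 tested genes of this list rose when Stmn2 was not used, and 0 of 7 tested passed when it was (edgeR). Cldn3, a claudin of medullary progenitors, fell from 134 ± 31.6 to 29.2 ± 10.7 CPM (log2 fold change -2.29, adjusted p = 0.00397 from edgeR), but did not pass without parathyroid- and neural-marked cells, whether Stmn2 was used or not (-2.23 and -3.38, adjusted p = 0.484 and 0.0673 from edgeR). Fezf2, a regulator of self antigens in mature medullary cells, had 1 read in all, and the costimulatory genes Cd80 and Cd86 had none. Between the Krt5 classes no gene of the 5 lists passed in the main fit (edgeR). Over 15 alternative fits, Ccl21a passed in 6, Nfkbia in 3, H2-Ab1 and Cd74 in 2 each, and H2-Aa in 1. No other list gene that was recomputed passed in any.

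**Figure D4:**
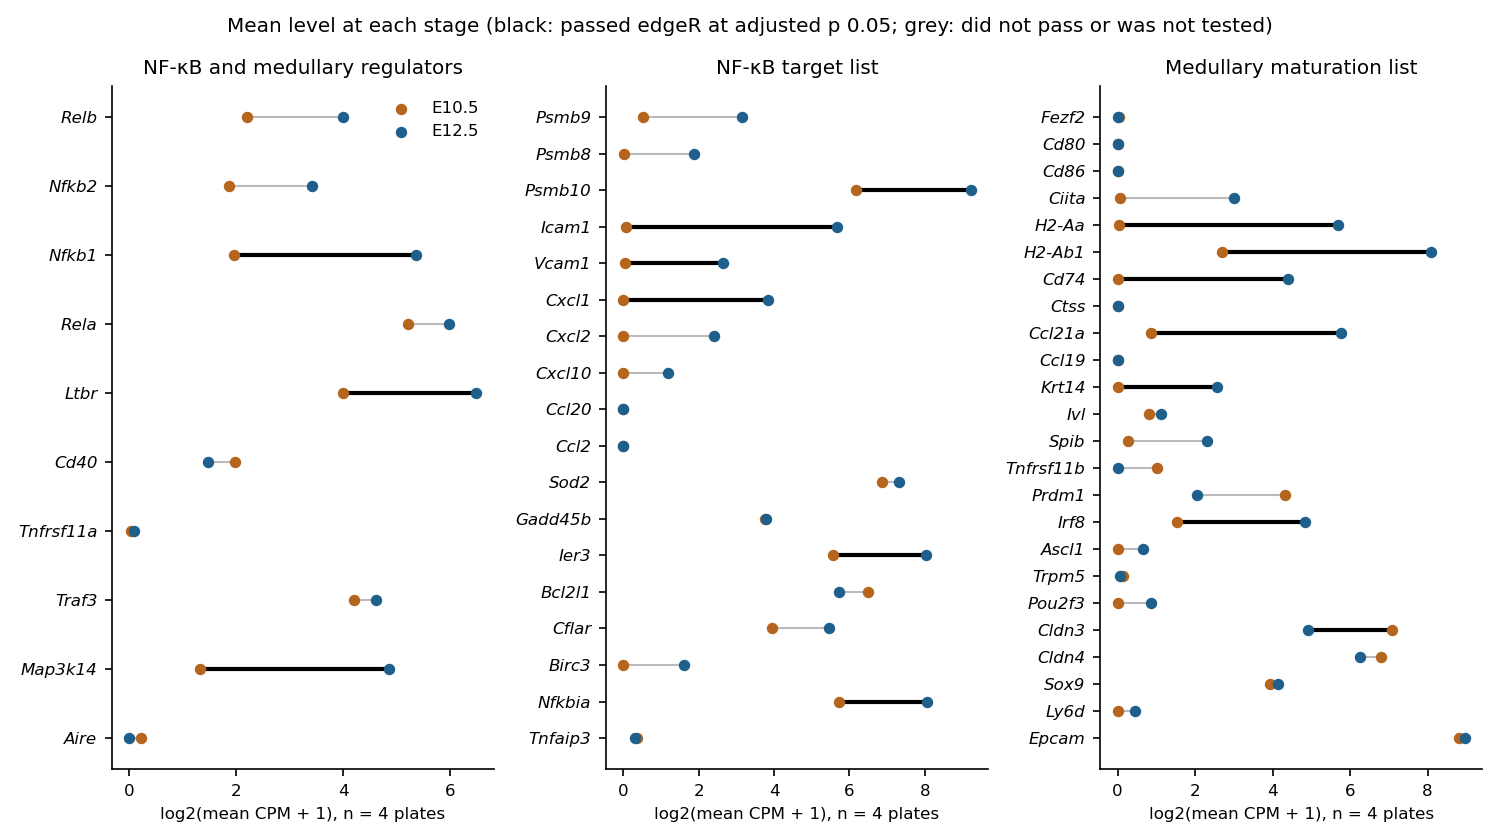
Mean level at E10.5 and E12.5 as log2(mean CPM + 1) over 4 plates for the 10 genes, 18 NF-κB targets and 24 genes listed for medullary maturation, with black lines for genes that passed edgeR at an adjusted p of 0.05. Ltbr, Nfkb1 and Map3k14 pass among the 10, and Aire, Tnfrsf11a, Fezf2, Cd80 and Cd86 lie near 0 at both stages.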

How the data were processed

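Single EPCAM+PLET1+ cells had been sorted into 96-well plates and sequenced as BD Precise libraries with molecular indices, most plates in 2 runs. Cell barcodes are well positions and so recur on every plate. The authors aligned reads with STAR, counted them per gene with HTSeq, and deposited raw read counts (GRCm38.p6, GENCODE vM18, per the file headers) and, for each run, counts of molecules after 2 error corrections, RSEC and DBEC. The strand setting of the counting and the versions of these tools were not given in the sources used here.

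Wells were kept with at most 50% mitochondrial reads, 40000 to 400000 reads and 500 to 5000 genes, which left 711 of 733. Raw counts of 21964 protein-coding genes (of 54179) were summed per plate, since cells are not replicates, and tested with edgeR 4.0.16 in R 4.3.3 (TMM, filterByExpr, robust quasi-likelihood fit, Benjamini-Hochberg over all genes tested). The stage fit had no covariate, and the Krt5 fit had the plate as a block. DESeq2 1.42.0, other scalings, filters, Krt5 limits, molecule counts and left-out plates or cells were alternatives. Fits were also run on counts simulated without plate effects. The outcome is not given here, so that run is no support for the calls. Intervals are exact binomial (scipy 1.17.1) and, like limits from 3 counts, cover counting error only. Doublets were not called, beyond the upper limits on reads and genes. Gene positions came from GENCODE vM21.

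The genes and lists were chosen with earlier results of these data known. All 10 genes are described; of the lists, those that passed are named, at most the 5 with the largest change in each direction, and any others are said to be chosen after their values were seen. Plate letters shared by the stages do not pair the plates: residual correlations were 0.074 for a, -0.012 for c and 0.027 for d.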

Additional observations from a re-analysis of the deposited data

Results flagged for a closer look

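In 9 of 36 groups of 4 plates, 1 plate lay far from the other 3 (Dixon's test at its 95% critical value). Most of these are genes read in 1 or 2 cells. A gene read on 1 plate only is flagged whatever its level, and Krt5 classes are parts of the same plates. The nominal rate of about 1 in 20 groups therefore does not apply here. Tnfrsf11a was at 0.0754 CPM on plate b of E10.5 and at 0.258 CPM on plate e of E12.5, where the reads came from Krt5-low cells (0.476 CPM), and was at 0 on the other plates. Aire was at 0.685 CPM on plate c of E10.5 and at 0 on the others. Cd40 was at 7.05 CPM on plate c of E12.5, with 4.30 CPM in Krt5-high and 8.34 CPM in Krt5-low cells, and at 0 on the other E12.5 plates.

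Traf3 was at 47.1 CPM on plate b of E10.5, against 5.89 to 10 CPM on the other E10.5 plates, with 13 cells holding its reads. Relb was at 91.2 CPM in Krt5-high cells of plate c, against 9.09 to 13.9 CPM on the other plates.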

How the results depend on the processing

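Between stages, 718 genes and 3 of the 10 passed; DESeq2 called 1269 genes and leaving out neural- and parathyroid-marked cells 131 genes and 0 of the 10. With plate letters as a replicate block, 230 genes and 1 of the 10, Ltbr, passed, and 3 target genes and 4 medullary genes; the letters do not pair the plates. Leaving out 1 plate gave 1 to 3 of the 10. Between Krt5 classes, 7 genes passed, among them Krt5 itself, which defines the classes. The count was 397 with DESeq2, 14 with no filter, 137 on DBEC molecules and 18 with no replicate block. It was 19 at 200 CPM of Krt5, and 1 each for any Krt5 read, a Krt5 molecule, or without parathyroid-marked cells. Whether that 1 gene was Krt5 is not given here. Leaving out 1 plate gave 0 to 11 (0 without plate a, 1 without c or e, 11 without d). None of the 10 passed between Krt5 classes in any of these. Between stages Traf3 alone of the genes recomputed turned direction, with a log2 fold change of -0.13 with plate a of E10.5 left out and plate b added. Between Krt5 classes many log2 fold changes, none of which had passed, turned direction. On DBEC molecules Nfkb1 was -0.10, Traf3 -0.06, Map3k14 -0.06 and Tnfrsf1a -0.09. With DESeq2 Cd40 was 0.10. At 200 CPM Rela was -0.08, Traf3 -1.09, Ier3 -0.16 and Irf8 -1.32. For Krt5 with Krt17 or Cldn4 Nfkb2 was -0.45, Nfkb1 -3.68, Cd40 0.76, Traf3 -2.49, Map3k14 -1.79, Tnfrsf1a -1.48, Psmb10 -0.70, Cxcl1 -0.91, Ier3 -0.13, H2-Ab1 -0.05 and Irf8 -6.78. For a Krt5 molecule Ier3 was -0.01, with all wells Traf3 -0.01, and with no replicate block Vcam1 0.42. For any Krt5 read Traf3 was -0.31, Vcam1 1.19 and Cldn3 0.27. Without parathyroid-marked cells Traf3 was -0.24, Ccl21a 0.48 and Cldn3 1.24. Leaving out 1 plate gave -0.64 to 0.72 for Traf3, -0.10 to 2.62 for Nfkb2, -0.14 to 0.54 for Rela, -0.07 to 1.22 for Ltbr, -0.21 to 0.84 for Nfkb1, -0.07 to 0.71 for Tnfrsf1a, -2.81 to 0.37 for Vcam1, -0.16 to 0.61 for Irf8 and -0.11 to 0.93 for Ier3. The cause of these shifts was not tested. Limits: 4 plates per stage, few reads per cell and genes read in 1 or 2 cells restrict what could be seen, and 0 reads in 355 cells still allows 0.845%.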

Other observations

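Between Krt5 classes at E12.5, Nfkbia, the inhibitor of RELA and p50, was at 270, 765, 442 and 339 CPM in Krt5-high cells of plates a, c, d and e and at no more than 170 CPM in Krt5-low cells of any of these plates. The classes did not overlap, but the log2 fold change of 1.61 (standard error 0.28) did not pass (adjusted p = 0.180 from edgeR, Benjamini-Hochberg), and over the alternatives the adjusted p ran from 6.82e-06 to 1.0. How many of all genes had Krt5 classes without overlap was not counted, so this lack of overlap cannot be weighed. Ccl21a, a chemokine that attracts thymocyte progenitors, was at 5.26, 6.02, 4.40 and 1.13 CPM in Krt5-high cells and at 74.6, 132, 94.8 and 39.2 CPM in Krt5-low cells (log2 fold change -4.34, standard error 0.54, adjusted p = 0.0531 from edgeR). Over the alternatives its log2 fold change ran from -4.55 to 0.48 and its adjusted p from 8.59e-27 to 1.0, with 6 of 15 passing. The value of 0.48 was that without parathyroid-marked cells, which made up 34.1% of Krt5-low cells. Of the other list genes, Nfkbid, H2-Aa, H2-Ab1 and Cd74 also did not overlap, were higher in Krt5-high cells and did not pass in the main fit. Their means were 18.9 against 0.937, 76.7 against 33.9, 374 against 204 and 39.4 against 8.47 CPM. All of these genes were chosen after their values were seen, so these are values to look at again rather than results.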
